A study of Mus musculus with 15 samples.

Results

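The 8 genes described here encode subunits of the voltage-gated sodium channels, and they were taken from the expression table by symbol: Scn1a, Scn2a1, Scn3a, Scn8a and Scn9a for the pore-forming subunits, and Scn2b, Scn3b and Scn4b for the accessory beta subunits. They are 8 of the 38283 genes in the table and 8 of the 14 genes of the channel family that it lists. The series profiled mouse islet cells by RNA sequencing, with 5 samples of alpha cells, 4 of beta cells and 6 of delta cells, in order to describe delta cells beside their neighbours. Every animal was on a C57BL/6 background. Alpha cells were the fluorescent cells of Glu-Venus mice, in which the Venus protein is made under the proglucagon promoter. Beta cells came from the same line as Venus-negative cells with high scatter and autofluorescence, so that they were defined by their optical properties and not by a reporter. Delta cells came from Sst-CreXROSA26EYFP/EYFP mice, in which Cre under the somatostatin promoter switches on EYFP and keeps it on in every cell that has once expressed Cre. Delta cells thus also differ from the other samples in the mouse line they came from, and line and cell type cannot be told apart. Each sample pooled islets of several mice, and the labels do not give the age of the animals.

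Sodium channels of this family open on depolarisation, let sodium into the cell and then inactivate within milliseconds, which produces the upstroke of the action potential. The pore is a single large protein with its own voltage sensors, and 1 or more small beta subunits, membrane proteins with an immunoglobulin-like domain outside the cell, alter its gating and its delivery to the surface. In islets, electrical activity opens calcium channels and calcium triggers hormone release, and the sodium current of an islet cell is set in part by which pore-forming subunit it makes, because the subunits inactivate over different ranges of membrane potential.

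Of the 8 genes, 4 lie in 1 stretch of chromosome 2 in the GRCm38 build: Scn3a (chr2:65457118-65567627, minus strand), Scn2a1 (chr2:65620771-65767447, plus strand), Scn1a (chr2:66270778-66440840, minus strand) and Scn9a (chr2:66480080-66634962, minus strand). Scn8a is on chromosome 15 (chr15:100869858-101045938, plus strand). The 3 beta subunit genes are on the plus strand of chromosome 9, Scn3b at chr9:40269217-40291618, Scn2b at chr9:45117782-45130070 and Scn4b at chr9:45138395-45154152. In GENCODE M21 the longest transcript of each pore-forming gene has 27 exons and spans 8386 to 11436 nt, whereas those of the beta subunit genes have 4 to 7 exons and 4150 to 4982 nt.

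RefSeq promoter windows of 300 nt (GRCm38.p6) were at hand for 6 of the 8 genes, all except Scn3a and Scn3b. The part of the window upstream of every transcript in GENCODE and RefSeq is printed for Scn9a and Scn2b, whose values separated cell types in samples described further on. For Scn2b it ends at the gene start given above. For Scn9a, where RefSeq places the start further upstream than GENCODE, it ends short of it. Scn8a, whose delta and beta samples also separated, had no such stretch of 60 nt or more in its windows. Both are written 5′ to 3′ on the strand of the gene, in lower case, with any CG dinucleotide in capitals. The Scn9a stretch is chr2:66635115-66635212 on the minus strand, and the Scn2b stretch is chr9:45117626-45117781 on the plus strand.
Scn9a: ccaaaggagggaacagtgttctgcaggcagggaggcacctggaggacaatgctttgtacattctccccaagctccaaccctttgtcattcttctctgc
Scn2b: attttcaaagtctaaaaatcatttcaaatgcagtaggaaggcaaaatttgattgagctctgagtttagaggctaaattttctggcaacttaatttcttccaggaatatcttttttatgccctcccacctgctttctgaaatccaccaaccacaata
Neither of these stretches holds a CG, so no capitals appear. The whole window of Scn9a, which runs into the transcript, had 9 CG dinucleotides and that of Scn2b had 2, beside a median of 7 over all 32851 windows. The 2 windows of Scn8a had 38 and 12 and the window of Scn4b had 26, beside an upper quartile of 20 over all windows. The TATA box letters TATAAA, searched on both strands, were found in 1 of the 8 windows, a second window of Scn2a1, and in 13.6% of all windows. The letters GGGCGG, searched the same way, were found in none of the 8 and in 35.7% of all windows.

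Values are FPKM, which divide the fragments of a gene by its transcript length and by the number of fragments mapped in the sample, so that levels of genes of different length can be compared. The hormone genes followed the labels, with Gcg at 184426 to 344947 FPKM in alpha cells, Ins2 at 91248 to 638871 in beta cells and Sst at 101492 to 266276 in delta cells. Ppy, the hormone gene of PP cells, was at 17728 to 41392 FPKM in alpha and 10857 to 48600 in delta cells, against 16.9 to 98.1 in beta cells. Its group means were thus higher in alpha and delta than in beta cells, as were those of Scn3a, Scn2b and Fgf14. The differences of Scn3a and Scn2b from beta cells were not all called. Whether the level of Ppy followed these genes from sample to sample, and the part of PP cells in those results, was not tested. Adding up the FPKM of 85 ribosomal protein genes split the samples in 2 sets. In 6 samples (alpha replicates 1 to 3, beta replicate 2 and delta replicates 1 and 2) it was 65611 to 140979, and in the other 9 it was 7919 to 38775. Values within the low and the high set are given where they end or change a call. Read totals are not part of the table. The spacing of low values, which is that of 1 read, was clear in 5 samples and gave a depth of 7.5 to 30.5 M reads. No depth could be read from the remaining 10.

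The plot of FPKM by sample shows the 8 genes together. Scn3a, Scn9a and Scn3b made up most of the FPKM of the 8 genes in every sample, and their balance differed between the cell types. In alpha cells Scn3a had the highest mean, in beta cells Scn9a, and in delta cells Scn3b, Scn9a and Scn3a lay within 1 FPKM of each other. Scn2b was near 0 in beta cells alone, Scn2a1 and Scn1a were low in every cell type and Scn4b was listed at 0 throughout.

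**Figure D1:**
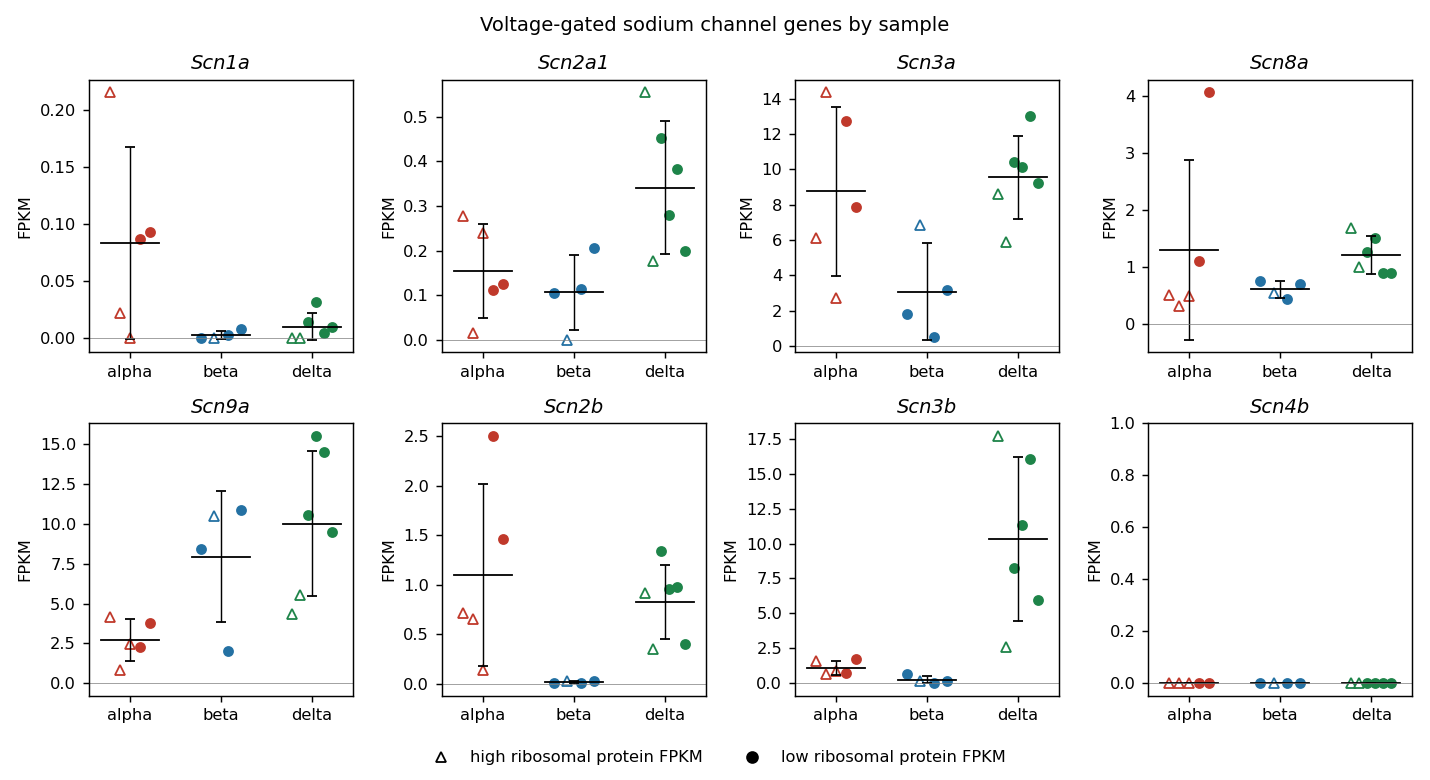
FPKM (linear y axes, a scale of its own in each panel) of the 8 sodium channel genes in alpha (n = 5), beta (n = 4) and delta (n = 6) samples. Each point is a sample, the wide bar is the mean and the thin bar the SD, and open triangles are the 6 samples with high summed ribosomal protein FPKM. Every delta sample lies above every other sample for Scn3b, and every beta sample lies below every other sample for Scn2b.

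Differences were tested with limma on log2(FPKM + 1) over 14405 genes, those that averaged more than 1 FPKM in any of the cell types, and a gene was called at a Benjamini-Hochberg adjusted p under 0.05. Adding 1 to the FPKM understates the change of low genes. Of the 8 genes, 5 passed this filter (Scn3a, Scn8a, Scn9a, Scn2b and Scn3b), and Scn1a, Scn2a1 and Scn4b did not. In the F-test across the 3 cell types, 2 of the 5 were called, Scn3b and Scn9a, where 16.0% of all genes tested were called. The adjusted p across cell types was 1.11e-04 for Scn3b, 0.0478 for Scn9a, 0.0525 for Scn3a and 0.613 for Scn8a, and Scn2b was not called either. The p-values measure the spread between these pools of islets. In bulk samples, fewer cells that express a gene and less of its RNA in each cell cannot be told apart.

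Scn3a encodes Nav1.3, a pore-forming subunit best known from the developing nervous system and also found in islet cells. It measured 6.14, 14.4, 2.72, 12.7 and 7.85 FPKM in alpha replicates 1 to 5 and 1.78, 6.83, 0.495 and 3.17 in beta replicates 1 to 4. In delta cells the lowest value was 5.89, the median 9.69 and the highest 13.0. Of the 4 beta samples, 3 lay below every delta sample, and beta replicate 2 fell inside the delta range. Alpha and delta samples overlapped over most of their range. The delta level of Scn3a was above the beta level by 1.60 on the log2 scale (SE 0.460, 95% CI 0.62 to 2.57, limma adjusted p = 0.0281), with means of 9.55 ± 2.35 (SD, n = 6) and 3.07 ± 2.74 (SD, n = 4) FPKM.

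The difference of Scn3a between delta and beta cells stayed between 1.20 and 1.99 when any 1 sample was left out. The call was lost, at adjusted p = 0.0515 to 0.0932, without beta replicate 1, 3 or 4 or delta replicate 3, 4 or 5. Among the samples with low ribosomal protein sums the means were 10.7 FPKM in 4 delta and 1.82 in 3 beta samples (difference 2.17 on the log2 scale, limma adjusted p = 0.00476). Among those with high sums, 2 delta samples averaged 7.24 and the single beta sample measured 6.83 (difference 0.05, adjusted p = 0.997). The difference was called within the low set and not within the high set, and the gap between the sets was not tested.

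Between beta and alpha cells, Scn3a did not pass the test, at -1.35 on the log2 scale (SE 0.478, 95% CI -2.36 to -0.33, limma adjusted p = 0.0996), with an alpha mean of 8.76 ± 4.78 FPKM (SD, n = 5). It was called in that comparison without alpha replicate 3 (-1.65, adjusted p = 0.0398), without beta replicate 2 (-1.75, adjusted p = 0.0243), and after either rescaling of the samples (-1.27 in both, adjusted p = 0.0486 with median-ratio size factors and 0.0395 with quantile normalisation). Within the low set the difference was -2.09 (adjusted p = 0.0224), and within the high set 0.08 (adjusted p = 0.988). Between delta and alpha cells it was 0.25 (SE 0.431, 95% CI -0.67 to 1.16, adjusted p = 0.846).

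Scn9a encodes Nav1.7, the pore-forming subunit of peripheral sensory and sympathetic neurons. It measured 4.19, 0.817, 2.49, 2.28 and 3.80 FPKM in alpha replicates 1 to 5. The beta samples held 8.41, 10.5, 2.01 and 10.9 FPKM, and the delta samples ranged from 4.36 through a median of 10.0 to 15.5. Every delta sample lay above every alpha sample, though the closest pair, delta replicate 1 and alpha replicate 1, differed by little. Among the beta samples, 3 lay above every alpha sample, and beta replicate 3 lay among them. The delta level of Scn9a was above that of alpha cells by 1.54 on the log2 scale (SE 0.429, 95% CI 0.63 to 2.45, limma adjusted p = 0.0393), with means of 9.99 ± 4.53 (SD, n = 6) and 2.71 ± 1.34 FPKM (SD, n = 5).

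That call for Scn9a was lost under 13 of 27 alternatives, all with the delta level above. Leaving out 1 sample at a time gave 1.30 to 1.72, and the call was kept in 7 of 15 such fits. It was lost, at adjusted p = 0.0524 to 0.112, without alpha replicate 2, 3 or 4, beta replicate 1, or delta replicate 3, 4, 5 or 6. In delta cells the level also moved with the ribosomal protein sum, at 4.95 FPKM on average in the 2 samples of the high set and 12.5 in the 4 of the low set. Within the low set the difference from alpha cells was 1.74 (limma adjusted p = 0.134) and within the high set 0.89 (adjusted p = 0.509). With the set as a covariate in the fit of all 15 samples, the difference was 1.43 and was not called (adjusted p = 0.0511).

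Scn9a in beta cells averaged 7.95 ± 4.10 FPKM (SD, n = 4). Its difference from alpha cells was 1.18 on the log2 scale (SE 0.475, 95% CI 0.17 to 2.18, limma adjusted p = 0.147). It was called with median-ratio size factors (1.35, adjusted p = 0.0481) and without beta replicate 3 (1.64, adjusted p = 0.0320). Delta and beta cells differed by 0.36 (SE 0.457, 95% CI -0.61 to 1.33, adjusted p = 0.650), so that the interval allows either direction.

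Because both genes were measured in the same library, the ratio of Scn9a to Scn3a does not depend on how samples are scaled against each other. It is given as a description, without a test, because it was computed after the levels of both genes were known. The ratio was 0.682, 0.0569, 0.916, 0.180 and 0.484 in alpha replicates 1 to 5 and 4.72, 1.53, 4.05 and 3.43 in beta replicates 1 to 4. In delta cells it ran from 0.507 through a median of 1.02 to 1.53. Scn3a thus exceeded Scn9a in all 5 alpha samples and Scn9a exceeded Scn3a in all 4 beta samples, while 4 delta samples were above 1 and 2 below. Beta replicates 2 and 4 fell inside the alpha range for Scn3a alone and beta replicate 3 for Scn9a alone, while for the ratio no beta sample did.

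As a share of the summed FPKM of the 5 pore-forming genes, Scn3a made up 64.0 ± 20.3% in alpha, 23.0 ± 10.5% in beta and 46.3 ± 6.25% in delta cells (SD, n = 5, 4 and 6). The share of Scn9a was 24.4 ± 15.3%, 68.4 ± 7.71% and 45.6 ± 9.32% in the same order. Alpha samples varied most, with Scn3a at 45.9% in replicate 3 and 92.5% in replicate 2. The sum itself was 13.0 ± 4.44 FPKM in alpha, 11.7 ± 6.43 in beta and 21.1 ± 6.49 in delta cells.

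**Figure D2:**
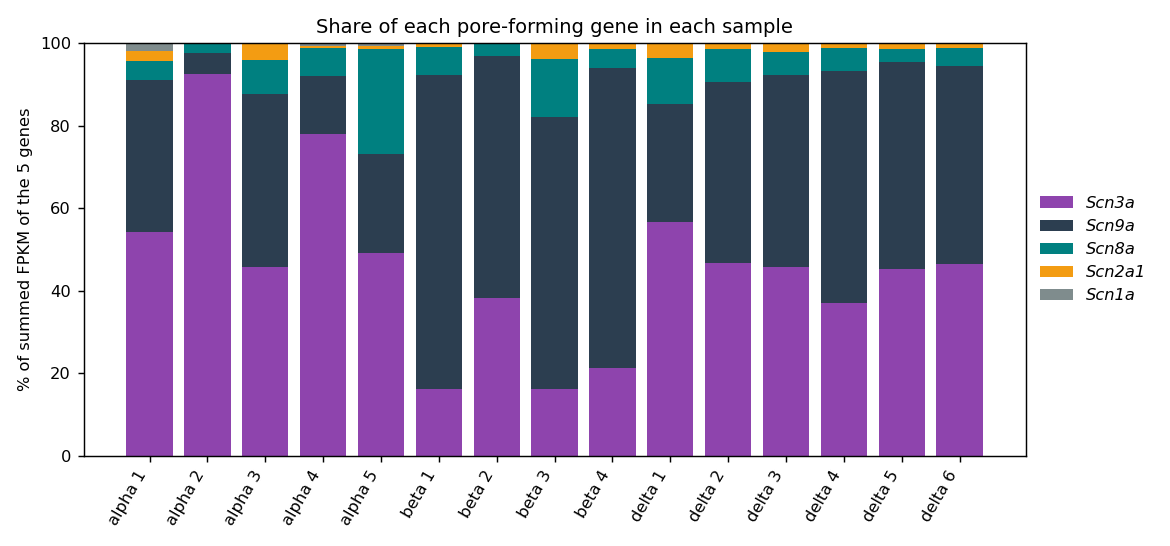
Share of each of the 5 pore-forming genes in their summed FPKM (%, linear axis from 0), 1 bar per sample. Scn9a is the largest share in all 4 beta samples, at 58.7% to 76.1%, and Scn3a the largest in all 5 alpha samples, at 45.9% to 92.5%.

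Scn8a encodes Nav1.6, the main subunit of nodes of Ranvier and axon initial segments in adult neurons. It measured 0.498, 0.315, 0.482, 1.10 and 4.07 FPKM in alpha replicates 1 to 5 and 0.751, 0.543, 0.426 and 0.697 in the beta samples. The delta samples lay between 0.883 and 1.68, with a median of 1.13. Every delta sample was above every beta sample, and the alpha samples spanned both. None of the 3 comparisons passed the test. Delta against beta cells gave 0.45 on the log2 scale (SE 0.342, 95% CI -0.28 to 1.17, limma adjusted p = 0.428), beta against alpha cells -0.31 (adjusted p = 0.638) and delta against alpha cells 0.13 (adjusted p = 0.902). Quantile normalisation turned the sign in both delta comparisons, to -0.10 against beta and -0.29 against alpha cells.

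Scn2a1, the table's symbol for Scn2a, encodes Nav1.2, an early axonal subunit of central neurons. It reached 0.279 FPKM at most in alpha cells, 0.206 in beta cells and 0.176 to 0.555 in delta cells, with means of 0.154 ± 0.106 (SD, n = 5), 0.107 ± 0.0841 (SD, n = 4) and 0.341 ± 0.149 (SD, n = 6). The delta samples overlapped both other groups. Scn1a encodes Nav1.1, the subunit of many inhibitory interneurons. Its highest value was 0.215 FPKM, in alpha replicate 1, and it did not exceed 0.0310 in any beta or delta sample. Neither gene passed the filter, and in a limma fit of all genes above 0 in any sample neither was called (adjusted p = 0.0800 to 0.833 for Scn2a1 and 0.206 to 0.934 for Scn1a). Of 24 alternatives to that fit, 2 called Scn2a1 in delta against beta cells (lowest limma adjusted p = 0.0270, and 0.0483 without delta replicate 2). In beta against alpha cells 1 of 24 called Scn1a (limma adjusted p = 0.0312).

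Scn3b encodes the beta 3 subunit, which associates with the pore without a covalent bond. Of the 5 tested genes it had the largest difference in both delta comparisons on the log2(FPKM + 1) scale. The alpha samples held 1.57, 0.641, 0.844, 0.711 and 1.68 FPKM and the beta samples 0.613, 0.169, 0.0170 and 0.120. The delta samples ran from 2.58 through a median of 9.81 to 17.7. All 6 delta samples were above all 9 others, and all 5 alpha samples were above all 4 beta samples, by a narrow margin between alpha replicate 2 and beta replicate 1. The means were 10.3 ± 5.87 in delta (SD, n = 6), 1.09 ± 0.498 in alpha (SD, n = 5) and 0.230 ± 0.263 FPKM in beta cells (SD, n = 4).

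The delta level of Scn3b was above the alpha level by 2.27 on the log2 scale (SE 0.380, 95% CI 1.46 to 3.07, limma adjusted p = 9.90e-04) and above the beta level by 3.02 (SE 0.405, 95% CI 2.16 to 3.88, adjusted p = 1.04e-04). Both calls were kept in all 15 fits that left out 1 sample, with differences of 2.08 to 2.56 and 2.84 to 3.32. They also held within the low ribosomal protein set, at 2.33 (adjusted p = 0.0142) and 3.14 (adjusted p = 8.38e-04). In the high set, with 3 alpha, 1 beta and 2 delta samples, the differences were 2.05 (adjusted p = 0.342) and 2.81 (adjusted p = 0.191). Beta against alpha cells gave -0.76 (SE 0.421, 95% CI -1.65 to 0.14, adjusted p = 0.303), and -2.07 with an added constant of 0.1 in place of 1 (adjusted p = 0.0449). Taken as the log2 ratio of mean FPKM, which has no test, the delta level was 3.24 above alpha and 5.49 above beta cells.

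Islet nerve fibres and glia could carry sodium channel transcripts, so their markers are given beside Scn3b. Of 10 neuronal markers, 3 were at 0 in every delta sample and 5 in every sample of each other cell type. Prph, Dbh and Chat were listed at 0 in all 15 samples, and Nefl and Phox2a did not exceed 0.0475 FPKM in any delta sample. The summed level of the 10 was 130 to 183 FPKM in delta, 143 to 225 in alpha and 96.6 to 313 in beta cells, and Snap25, which endocrine cells also express, gave most of it. Of 7 glial markers, 1 was at 0 in every delta sample and 5 in every sample of each other cell type. Foxd3 was listed at 0 in all samples, and Sox10, Cdh19 and Gfap did not exceed 0.0485 FPKM in any delta sample. Their sum was 7.30 to 10.5 FPKM in delta, 4.35 to 15.4 in alpha and 2.89 to 8.53 in beta cells, nearly all of it from Mbp. The sum of 5 acinar markers was highest in delta replicate 4, at 397 FPKM, where Scn3b measured 11.3 FPKM. In the other alpha, beta and delta samples it was lower, with medians of 10.2, 1.45 and 33.0 FPKM over the 3 groups. In delta cells the highest sums of the ductal, endothelial, mesenchymal and immune markers were 84.2, 1.53, 0.230 and 8.60 FPKM, in alpha cells 160, 0.987, 0.159 and 1.83, and in beta cells 18.2, 0.561, 0 and 1.70. The 3 ductal markers differed in direction. Spp1, which gave nearly all of their sum, averaged 26.3 FPKM in delta, 54.8 in alpha and 9.05 in beta cells. Krt19 was listed at 0 in all 6 delta samples and averaged 1.96 FPKM in alpha and 0.276 in beta cells. Sox9 was at 0.112 to 2.33 FPKM in delta samples and at 0.0131 at most in alpha and beta samples. Of the 4 endothelial markers, each with its highest mean in delta cells and overlap between single samples, Pecam1 averaged 0.322 FPKM in delta, 0.0207 in alpha and 0.0225 in beta cells. The part of other cells in the level of Scn3b was not tested.

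Scn2b encodes the beta 2 subunit, which is joined to the pore by a disulphide bond. Alpha replicates 1 to 5 held 0.712, 0.659, 0.137, 2.51 and 1.47 FPKM and the delta samples ran from 0.355 through a median of 0.941 to 1.34. The beta samples held 0.00595, 0.0285, 0.00634 and 0.0241 FPKM. Every beta sample was below every alpha and delta sample, while alpha and delta samples overlapped. On the log2(FPKM + 1) scale, beta against alpha cells gave -0.94 (SE 0.325, 95% CI -1.63 to -0.25, limma adjusted p = 0.0921) and delta against beta cells 0.82 (SE 0.313, 95% CI 0.16 to 1.48, adjusted p = 0.0933), and neither was called.

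These values for Scn2b depend strongly on the constant added before the logarithm, since the beta level is far below 1 FPKM. With 0.1 in place of 1, the differences were -2.96 (limma adjusted p = 0.0112) and 2.88 (adjusted p = 0.00656), and both were called. The log2 ratio of mean FPKM was -6.08 for beta against alpha and 5.67 for delta against beta cells. Within the low ribosomal protein set, beta against alpha cells gave -1.54 (adjusted p = 0.0230) and delta against beta cells 0.90 (adjusted p = 0.0494). With the set as a covariate both were also called, at -1.09 (limma adjusted p = 0.0362) and 0.86 (adjusted p = 0.0460). Beta against alpha cells were called as well with quantile normalisation (-0.93, adjusted p = 0.0373) and without alpha replicate 3 (-1.13, adjusted p = 0.0406), while without alpha replicate 4 Scn2b did not pass the filter and has no value. The alpha level itself differed between the sets, at 0.503 FPKM in 3 samples of the high set and 1.99 in 2 of the low set. Delta against alpha cells gave -0.12 (SE 0.294, 95% CI -0.74 to 0.50, adjusted p = 0.906).

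Scn4b encodes the beta 4 subunit, whose cytoplasmic tail can block and unblock the open pore. It was listed at 0 in all 15 samples. Depth was estimated from the spacing of low values in 5 samples, alpha replicate 2 and delta replicates 1 to 4. In these a value of 0 allows up to 0.0206 to 0.0836 FPKM, the level of 3 reads. This limit covers counting error only, and no beta sample has one.

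The 3 comparisons can be read together from the plot of differences. In beta against alpha cells, limma called none of the 5 tested genes, and 3 of them (Scn3a, Scn9a and Scn2b) had an unadjusted p under 0.05. Over all genes 2.84% were called higher and 4.82% lower in beta cells, and 22.9% had an unadjusted p under 0.05. In delta against alpha cells 2 of 5 were called higher (Scn3b and Scn9a) and none lower, where 5.33% of all genes were called higher and 1.48% lower. In delta against beta cells 2 of 5 were called higher (Scn3b and Scn3a) and none lower, where 11.7% of all genes were called higher and 2.99% lower. The median log2 difference of the 5 genes was -0.76, 0.25 and 0.82 in the 3 comparisons, beside -0.13, 0.13 and 0.30 over all genes tested. The comparisons share samples, since each cell type enters 2 of them.

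**Figure D3:**
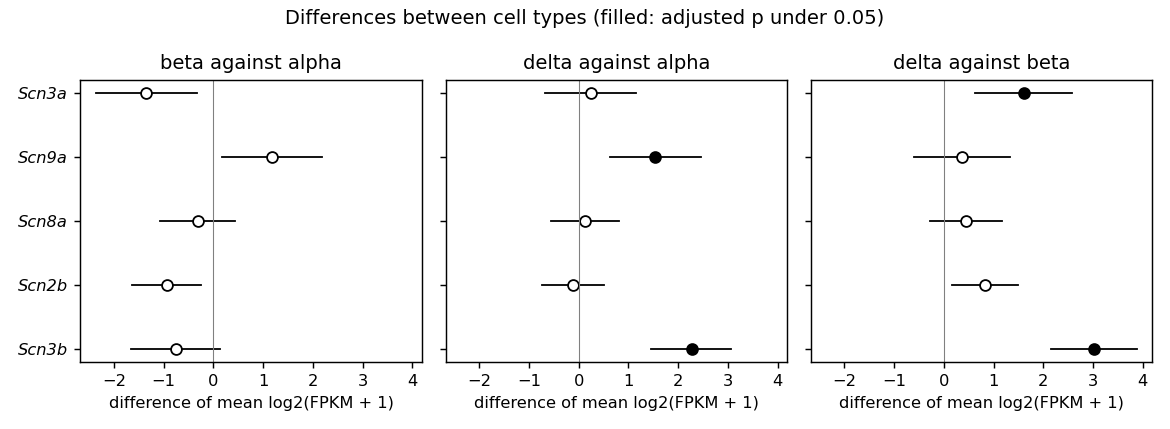
Difference of mean log2(FPKM + 1) for the 5 tested sodium channel genes in the 3 comparisons, with 95% confidence intervals from limma. Filled points have an adjusted p under 0.05: Scn9a (1.54) and Scn3b (2.27) in delta against alpha cells, and Scn3a (1.60) and Scn3b (3.02) in delta against beta cells.

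Within each cell type the order of the genes by mean FPKM was as follows. In alpha cells Scn3a (8.76) was above Scn9a (2.71) in 5 of 5 samples, and Scn9a was above Scn8a (1.29) in 4 of 5. Scn8a, Scn2b (1.10) and Scn3b (1.09) followed without a clear order, Scn8a being above Scn2b in 2 of 5 samples. In beta cells Scn9a (7.95) was above Scn3a (3.07) in 4 of 4 samples, and Scn3a above Scn8a (0.604) in 4 of 4. In delta cells Scn3b (10.3) was above Scn9a (9.99) in 2 of 6 samples and Scn9a above Scn3a (9.55) in 4 of 6, so that the order of these 3 differed from sample to sample. Among the 38283 genes they ranked 4629, 4768 and 4934 by delta mean.

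The pore-forming genes on chromosome 2 are close relatives, and reads from their most alike exons could be assigned to the wrong copy. Of all 50 nt stretches in the transcripts of Scn3a, 6.49% also occurred in another gene, and the share was 5.76% for Scn2a1, 4.16% for Scn9a and 4.03% for Scn1a. It was 0.0374% for Scn8a and 1.01% for Scn2b, and no stretch of Scn3b or Scn4b was shared. How shared reads were divided is not given in the sources used here, so values of the low members Scn1a and Scn2a1 are the less certain ones. An antisense gene, Gm13629, shares 180 nt of exon with Scn9a and measured 0.209 FPKM at most. Whether counting used the strand is not stated.

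For each gene called across the cell types, the 3 tested genes with the most similar pattern were found by the root mean square difference of centred log2(FPKM + 1) over the 15 samples. For Scn3b, whose own SD over the samples was 1.42, these were Fermt1 (0.48), Tmie (0.51) and Samd14 (0.51). For Scn9a, with an SD of 0.93, they were Ezr (0.45), Rnf150 (0.46) and Erc2 (0.46). The likeness is a description over samples that share 3 group means.

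A further 4 family genes were all below the filter, as the map of other genes by sample shows. Scn11a, which encodes the persistent-current subunit Nav1.9 of sensory neurons, measured 0.334 to 1.03 FPKM in the 6 delta samples (median 0.503). It was listed at 0 in all 4 beta and 4 of 5 alpha samples, with 0.0227 in alpha replicate 2. In the limma fit of all genes above 0, the delta level was above the alpha level by 0.60 (adjusted p = 5.72e-04) and above the beta level by 0.61 (adjusted p = 6.77e-04). Neither was called within the high ribosomal protein set (0.71, adjusted p = 0.271, and 0.72, adjusted p = 0.230), and both were within the low set (0.56 in each, adjusted p = 0.00356 and 0.00127). Scn7a, a channel that senses sodium concentration, lay at 0.0698 to 0.289 FPKM in delta cells, at 0 to 0.379 in alpha cells and at 0 in beta cells. Scn4a and Scn10a, of skeletal muscle and sensory neurons, were listed at 0 throughout.

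**Figure D4:**
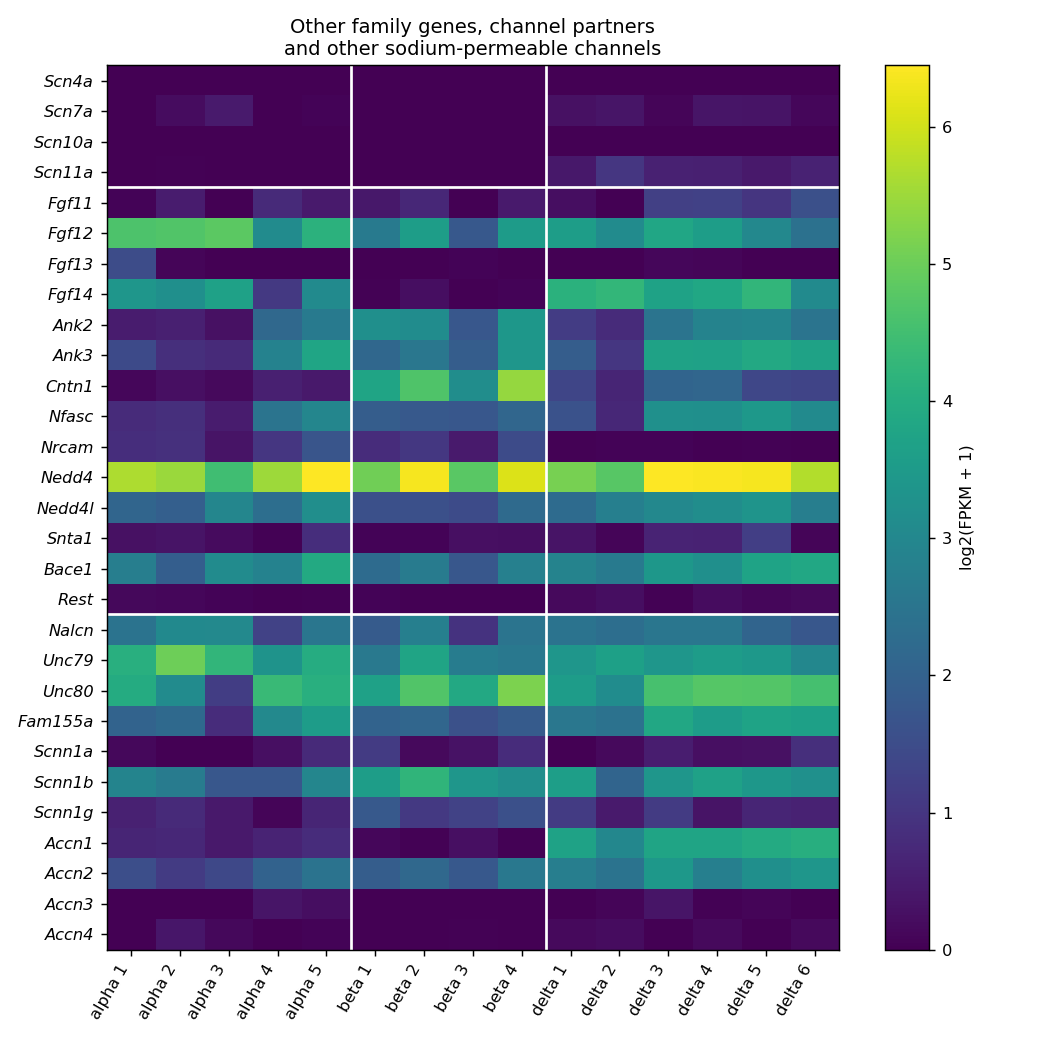
Map of log2(FPKM + 1) for 4 other family genes (top), channel partners and regulators (middle) and other sodium-permeable channels (bottom) in each of the 15 samples. Fgf14 is at 0.170 FPKM or lower in every beta sample, Cntn1 is highest in the 4 beta samples, and Accn1 is high in the 6 delta samples, at 6.96 to 15.6 FPKM.

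Of 16 genes listed as partners or regulators of the channels, 14 were in the table and 10 passed the filter. In beta against alpha cells 1 was called higher and 1 lower, in delta against alpha cells none, and in delta against beta cells 2 higher and 2 lower. Over all genes tested, 2.84% were higher and 4.82% lower in beta against alpha cells, 5.33% and 1.48% in delta against alpha cells, and 11.7% and 2.99% in delta against beta cells. The other 6 partners in the last comparison did not pass the test. Fgf14, an intracellular fibroblast growth factor homologue that binds the tail of the pore-forming subunit, measured 9.41, 8.32, 11.9, 1.10 and 7.44 FPKM in alpha cells and 7.52 to 18.2 (median 14.8) in delta cells. In beta cells it measured 0.0321, 0.170, 0.0156 and 0.0361, below every other sample. Beta against alpha cells gave -2.80 on the log2 scale (SE 0.446, limma adjusted p = 8.03e-04) and delta against beta cells 3.79 (SE 0.429, adjusted p = 1.90e-05). Within the low ribosomal protein set beta against alpha cells gave -2.04 and was not called (adjusted p = 0.0538), and within the high set -3.20 (adjusted p = 0.0234).

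Cntn1, a cell adhesion molecule of the axon surface that raises the surface level of sodium channels, had the opposite place. It measured 12.7, 24.4, 8.02 and 42.3 FPKM in beta cells, 0.0751 to 0.474 in alpha cells and 0.589 to 3.37 (median 1.57) in delta cells. The 3 groups did not overlap. Beta against alpha cells gave 3.96 (SE 0.418, limma adjusted p = 1.27e-05), and delta against beta cells gave -2.78 (SE 0.402, adjusted p = 2.08e-04).

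Nedd4l, a ubiquitin ligase that removes sodium channels from the membrane, was higher in delta cells, against beta cells, by 1.17 (SE 0.321, limma adjusted p = 0.0217), at 3.78 to 9.12 against 1.77 to 3.66 FPKM. The call was lost with median-ratio size factors (0.83, adjusted p = 0.101) and with quantile normalisation (0.77, adjusted p = 0.0880), and without beta replicate 1 or 3 or delta replicate 5 (adjusted p = 0.0502 to 0.0626). It was also lost within the high ribosomal protein set (0.94, adjusted p = 0.423) and kept within the low set (1.31, adjusted p = 0.0211). Nrcam, an adhesion molecule of the axon initial segment, was at 0.0134 to 0.0428 FPKM in delta cells, below every alpha (0.261 to 2.27) and beta sample (0.375 to 1.77). Delta against alpha cells gave -0.93 (SE 0.275, limma adjusted p = 0.0546), which was not called in the main fit and was called under 8 of 25 alternatives. Delta against beta cells gave -0.91 (SE 0.293, limma adjusted p = 0.0481), a call lost in 12 of 14 fits that left out 1 sample (adjusted p = 0.0568 to 0.167). It was kept without alpha replicate 3 or beta replicate 3, and without alpha replicate 5 the gene did not pass the filter. It was not called within the low (-0.88, adjusted p = 0.0824) or the high set (adjusted p = 0.147).

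Among the other sodium-permeable channels, 11 were in the table and 8 passed the filter. None was called in beta against alpha cells, 2 were called higher in delta cells in the comparison with alpha cells, and 1 of them also against beta cells, where 5.33% and 11.7% of all genes were called higher. Both belong to the acid-sensing channels, which open on extracellular protons. Accn1, the table's symbol for Asic2, lay at 6.96 to 15.6 FPKM in delta, 0.361 to 0.778 in alpha and 0.0259 to 0.192 in beta cells. The delta level exceeded that of alpha cells by 3.05 (SE 0.234, limma adjusted p = 3.65e-07) and that of beta cells by 3.59 (SE 0.250, adjusted p = 9.79e-08). Within the high ribosomal protein set the difference from alpha cells was 2.75 and was not called (adjusted p = 0.0532). Accn2, the symbol for Asic1, was higher in delta cells, against alpha cells, by 1.30 (SE 0.301, limma adjusted p = 0.0128), at 4.50 to 9.82 against 1.19 to 4.51 FPKM. It was not called within the low (0.96, adjusted p = 0.213) or the high set (1.26, adjusted p = 0.203).

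Of 6 genes beside the sodium channel cluster on chromosome 2, 3 passed the filter and 1 was called across the cell types, where 16.0% of all genes were called. Slc38a11, a gene of the amino acid transporter family next to Scn3a, lay at 3.01 to 5.73 FPKM in delta cells. Alpha cells held 4.22, 0.344, 0, 0.0637 and 0.752 FPKM and beta cells 0.196 at most. Delta cells exceeded alpha cells by 1.65 (SE 0.369, limma adjusted p = 0.0101) and beta cells by 2.28 (SE 0.394, adjusted p = 9.42e-04). Within the high ribosomal protein set neither was called (1.34, adjusted p = 0.502, and 2.02, adjusted p = 0.330). Scn3a, which lies beside it, was called in delta against beta cells and not in delta against alpha cells.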

How the data were processed

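RNA of sorted alpha (n = 5), beta (n = 4) and delta cells (n = 6) was amplified and sequenced by the authors, who deposited FPKM per gene. The submitters' processing notes name TopHat2 2.0.8, Cufflinks 2.2.1, edgeR and GRCm38. How the deposited FPKM were scaled between samples is not given in the sources used here. Amplification and a table without counts limit the precision of low genes.

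Here limma 3.58.1 (R 4.3.3; linear model of cell type, trended empirical Bayes) was run on log2(FPKM + 1) of all 15 samples, for the 14405 genes that averaged more than 1 FPKM in any cell type. P-values were adjusted over all of them by the Benjamini-Hochberg method, with a threshold of 0.05. The fit was tested on simulated data. FPKM are no counts, so no count test was used. Alternatives were a constant of 0.1, filters of 0.5 and 2 FPKM or none, median-ratio size factors, quantile normalisation, the ribosomal protein set as a covariate, fits of 2 cell types, a replicate block, leaving out each sample and, chosen after seeing the data, fits within each ribosomal protein set. Table genes were matched to GENCODE M21 by gene ID (36425 of 38283).

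The 8 genes, the lists of partners, other channels, neighbours and markers, and the tests were chosen with earlier results of these data known. Named genes are the 8, 4 other family genes, genes of the lists called in a comparison, the 3 genes most like each gene called across cell types, and markers and hormones; further names were chosen after their values were seen. Some further genes are not reported here.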

Additional observations from a re-analysis of the deposited data

Results flagged for a closer look

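Alpha replicate 5 held 4.07 FPKM of Scn8a, while the other 4 alpha samples held 0.315 to 1.10. Its gap to the nearest sample was 0.792 of the range of the group, above the limit of Dixon's test for 5 samples. It belongs to the set with low ribosomal protein sums. Of 21 groups of values examined for the sodium channel genes, 1 stood apart in this way, and chance gives about 1.05.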

How the results depend on the processing

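Over 21 differences of the sodium channel genes and 536 values under alternatives, 468 kept their direction and their side of the threshold, 23 lost a call, 19 gained one, 14 changed sign, and 12 moved in size where no test applies. The number of the 5 tested genes called across cell types, 2, was 4 with a constant of 0.1, and 1 with the filter at 0.5 FPKM, without a filter or with a replicate block, 0 in the high ribosomal protein set and 1 to 3 with 1 sample left out. In beta against alpha cells the count of 0 became 2 with a constant of 0.1, with median-ratio size factors, with quantile normalisation and in the low set, 1 with the set as a covariate, and 0 to 2 with 1 sample left out. In delta against alpha cells the count of 2 became 1 without a filter, with the replicate block, with the set as a covariate and in the low set, 0 in the high set, and 1 to 2 with 1 sample left out. In delta against beta cells the count of 2 became 3 with a constant of 0.1 and with the set as a covariate. It was also 3 in the low set, 1 with the replicate block, and 1 to 2 with 1 sample left out. The cause of these moves was not tested. The high set has 6 samples and 1 beta sample.

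Same-numbered samples were not treated as pairs. Of 13 such pairs, 5 had deviations correlated above 0.1 (mean 0.0761, range -0.152 to 0.281, beside a mean of -0.0161 for differently numbered samples). Most of these pairs include a delta sample, which came from another mouse line. The pooled figures therefore do not show whether alpha and beta samples of the same number came from shared islets. With the replicate block, Scn9a in delta against alpha cells gave 1.53 and Scn3a in delta against beta cells 1.54 (limma adjusted p = 0.0511 for Scn3a), neither was called, and both Scn3b calls were kept (2.37 and 2.99). Over all genes, the block gave 1227, 831 and 2001 calls in beta against alpha, delta against alpha and delta against beta cells.

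Calls over all genes in beta against alpha cells, 1104, became 2075 with size factors, 1970 with quantile normalisation, 407 in a fit of 2 cell types, 701 in the high set, and 651 to 1698 with 1 sample left out. The count fell outside a factor of 1.5 without alpha replicate 2 (702), beta replicate 1 (696), beta replicate 2 (1698) or beta replicate 4 (651). In delta against alpha cells, 981 became 629 in the low set and 153 in the high set. In delta against beta cells 2114 became 728 in the high set, and across cell types 2301 became 773. Size factors moved the median difference of all genes by 0.13, -0.12 and -0.28 in the 3 comparisons and quantile normalisation by 0.11, -0.17 and -0.30. The share of calls that were higher, 37.0%, 78.3% and 79.6%, became 52.6%, 67.8% and 51.6% with size factors and 47.6%, 56.8% and 50.9% with quantile normalisation.

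Signs turned for differences that were not called. In the high set these were beta against alpha cells for Scn3a (0.08), Scn8a (0.11) and Nrcam (0.35), and delta against beta cells for Scn9a (-0.96), Fgf12 (-0.25), Unc79 (-0.23) and Scn1a (0.00). In the low set they were Scn8a in delta against alpha cells (-0.62) and, in beta against alpha cells, Scn2a1 (0.03), Accn2 (-0.15) and Scn11a (0.00). Quantile normalisation turned Scn8a in delta against alpha (-0.29) and against beta cells (-0.10), Scn2a1 in delta against alpha (-0.00) and Scn1a in delta against beta cells (-0.02). Nrcam in beta against alpha cells turned with size factors (0.08), quantile normalisation (0.07) and the replicate block (0.07), and Scn11a with the set as a covariate (0.02). Leaving out 1 sample gave -0.06 to 0.45 for Scn3a and -0.02 to 0.47 for Scn8a in delta against alpha cells, -0.10 to 0.56 for Scn9a and -0.01 to 0.60 for Fgf12 in delta against beta cells, and -0.46 to 0.02 for Scn8a, -0.20 to 0.14 for Nrcam and -0.01 to 0.00 for Scn11a in beta against alpha cells. Depth was estimated in 5 samples, none of them of beta cells, so that values near 0 in the other 10 have no stated limit.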
